A study of Mus musculus with 6 samples.

Results

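The hepatocyte identity transcription factors are 8 genes, Hnf4a, Foxa1, Foxa2, Foxa3, Cebpa, Cebpb, Onecut1 and Prox1, chosen by name and matched on gene symbol. All 8 were among the 22599 genes of the count table and among the 13205 that passed the filter on low counts. RNA from mouse liver was sequenced in 6 bulk libraries, 3 from NcoR1ΔHep mice, whose hepatocytes carry the NcoR1 deletion, and 3 from NcoR1fl/fl mice (flox), whose floxed alleles are intact. The genotype label reads knockdown NcoR1 for the NcoR1ΔHep libraries and WT for the flox libraries. All 6 titles give 0 h, while the treatment label of both groups is liver ischemia-reperfusion, so surgery at 0 h is undefined. The mice ate chow freely in a room with a 12-hour light cycle. The labels name no Cre driver, age, sex or pooling of animals. They also do not tie a library to its own animal, and the p-values below therefore cover only how far these libraries vary, which may be technical.

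These factors act together in hepatocytes, the main cell type of the liver, where they bind each other's genes and the genes of secreted plasma proteins and of metabolic enzymes. Hnf4a encodes a nuclear receptor that the adult hepatocyte programme depends on. The Foxa proteins are pioneer factors that bind closed chromatin through a shared forkhead domain. C/EBPα, from Cebpa, drives metabolic genes and restrains division, and C/EBPβ, from Cebpb, serves the acute-phase response and regeneration. ONECUT1, also called HNF6, is a cut-homeodomain factor needed for bile duct formation and for metabolic genes. PROX1 is a homeodomain repressor of hepatocytes and of lymphatic endothelium, and it acts with HDAC3, the deacetylase that NcoR1 binds and activates.

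The promoters shown are those of Onecut1, whose transcript varied most among the 8 genes, and of Foxa2 and Hnf4a, whose upstream windows were the 2 of 12 RefSeq windows of the members that held the ONECUT core ATCAAT. The windows hold the 250 bases before an annotated start. The core was searched on both strands (ATCAAT or ATTGAT, with no other motif), and 6.72% of 32851 mouse promoter windows of the same length held it. Capitals mark the core, and a match describes the letters only. Sequences are from RefSeq, build GRCm38.p6, and run 5′ to 3′ on the gene's strand.
Onecut1, chr9:74861671-74861920, plus strand, with no match and 71.6% G and C: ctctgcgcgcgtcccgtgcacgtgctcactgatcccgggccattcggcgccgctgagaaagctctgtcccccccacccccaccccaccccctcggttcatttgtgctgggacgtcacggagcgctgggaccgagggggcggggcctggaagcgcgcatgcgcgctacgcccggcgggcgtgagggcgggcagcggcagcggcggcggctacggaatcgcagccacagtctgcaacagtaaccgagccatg
Foxa2, chr2:148046970-148047219, minus strand, with the core 208 to 213 bases before the start: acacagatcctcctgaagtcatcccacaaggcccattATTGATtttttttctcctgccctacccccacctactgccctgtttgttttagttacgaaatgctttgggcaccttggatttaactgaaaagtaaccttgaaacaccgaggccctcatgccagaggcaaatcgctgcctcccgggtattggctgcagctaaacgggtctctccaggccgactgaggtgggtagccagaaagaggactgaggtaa
Hnf4a upstream promoter, chr2:163506607-163506856, plus strand, with the core 54 to 59 bases before the start: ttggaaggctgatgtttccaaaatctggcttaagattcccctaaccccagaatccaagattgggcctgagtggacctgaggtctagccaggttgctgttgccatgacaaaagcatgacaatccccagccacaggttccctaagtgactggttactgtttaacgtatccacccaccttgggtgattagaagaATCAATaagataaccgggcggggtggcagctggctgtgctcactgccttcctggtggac
Hnf4a downstream promoter, chr2:163546905-163547154, plus strand, with no match: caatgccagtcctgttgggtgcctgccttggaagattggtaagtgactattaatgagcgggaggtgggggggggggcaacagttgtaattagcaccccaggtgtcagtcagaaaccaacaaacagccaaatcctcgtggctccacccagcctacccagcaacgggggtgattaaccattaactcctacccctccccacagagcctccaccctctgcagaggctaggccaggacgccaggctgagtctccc
The downstream promoter (P1) is the one adult liver mainly uses, and the upstream one (P2) is known from pancreas and fetal liver. The counts are gene totals and do not separate transcripts of these promoters.

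The libraries held 36975231 to 38470468 counts each. All 20 hepatocyte marker genes were tested and summed to 143001 to 173708 CPM in NcoR1ΔHep and 153139 to 179444 CPM in flox. Alb weighs most in this sum, with 6.56% (flox 3) to 8.85% (flox 1) of a library's counts. Several markers, Alb included, are also listed below as targets of these factors, so the sum is no independent check of hepatocyte content. Ncor1 itself was at 5.34, 6.63 and 4.93 FPKM in NcoR1ΔHep 1, 2 and 3, against 6.78, 6.70 and 7.72 FPKM in flox 1, 2 and 3 (log2 fold change -0.31, SE 0.21, edgeR adjusted p = 0.931). Gene totals do not show a deleted exon, and the genotypes below are those of the labels. One library stood apart: NcoR1ΔHep 1 had 17138 counts of Xist and 20 counts summed over Uty, Ddx3y, Eif2s3y and Kdm5d, which lie on the Y chromosome, while the other 5 libraries had 6 to 18 counts of Xist and 4174 to 10122 Y-linked counts. The fold changes of the 8 genes and the medians of the gene lists are therefore also given without NcoR1ΔHep 1. Clock genes set flox 1 and flox 2 apart. Dbp, a clock output gene picked with its values in view, was at 92.6, 41.9 and 37.6 FPKM in NcoR1ΔHep 1, 2 and 3, against 0.948, 3.76 and 47.2 FPKM in flox 1, 2 and 3. Arntl, a core clock gene picked in the same way, was at 0.0305, 0.109 and 0.0709 FPKM in NcoR1ΔHep, against 1.29, 0.702 and 0.0983 FPKM in flox. Flox 3 thus lay with the NcoR1ΔHep libraries for both genes. In bulk tissue, fewer cells of a type and less RNA per cell cannot be told apart.

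The levels of the 8 genes were first set side by side in FPKM, a read count per kilobase of gene and scaled to library depth, which allows levels of different genes to be compared. Cebpa and Hnf4a were the most abundant in both groups. In NcoR1ΔHep the order of mean FPKM was Cebpa, Hnf4a, Cebpb, Foxa3, Prox1, Foxa2, Foxa1 and Onecut1. In flox it was Cebpa, Hnf4a, Cebpb, Foxa3, Onecut1, Foxa2, Prox1 and Foxa1. Onecut1 was thus the 8th gene in NcoR1ΔHep and the 5th in flox, and Prox1 the 5th in NcoR1ΔHep and the 7th in flox. These ranks rest on the gene lengths behind the FPKM, which are given below.

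Most neighbours in these orders overlapped between libraries. The neighbours whose 3 values did not overlap were Cebpa over Hnf4a, Cebpb over Foxa3 and Foxa2 over Foxa1 in NcoR1ΔHep. In flox they were Cebpa over Hnf4a, at 126 FPKM or more against 122 FPKM or less, and Prox1 over Foxa1. Levels between genes rest on the length the authors divided by. That length equalled the exon total in GENCODE M21 for Cebpa (2636 bp) and Foxa2 (2370 bp), but it was 1824 bp for Onecut1, against 4113 bp in GENCODE M21, and 5140 bp for Foxa1, against 3327 bp. With the GENCODE lengths the FPKM of Onecut1 would be lower and that of Foxa1 higher in every library. Mean Onecut1 in flox would then lie below Foxa2 and Prox1. Foxa1 would overlap Foxa2 in NcoR1ΔHep and Prox1 in flox, so those orders and separations depend on the lengths used. Comparisons of 1 gene between libraries would be the same.

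**Figure D1:**
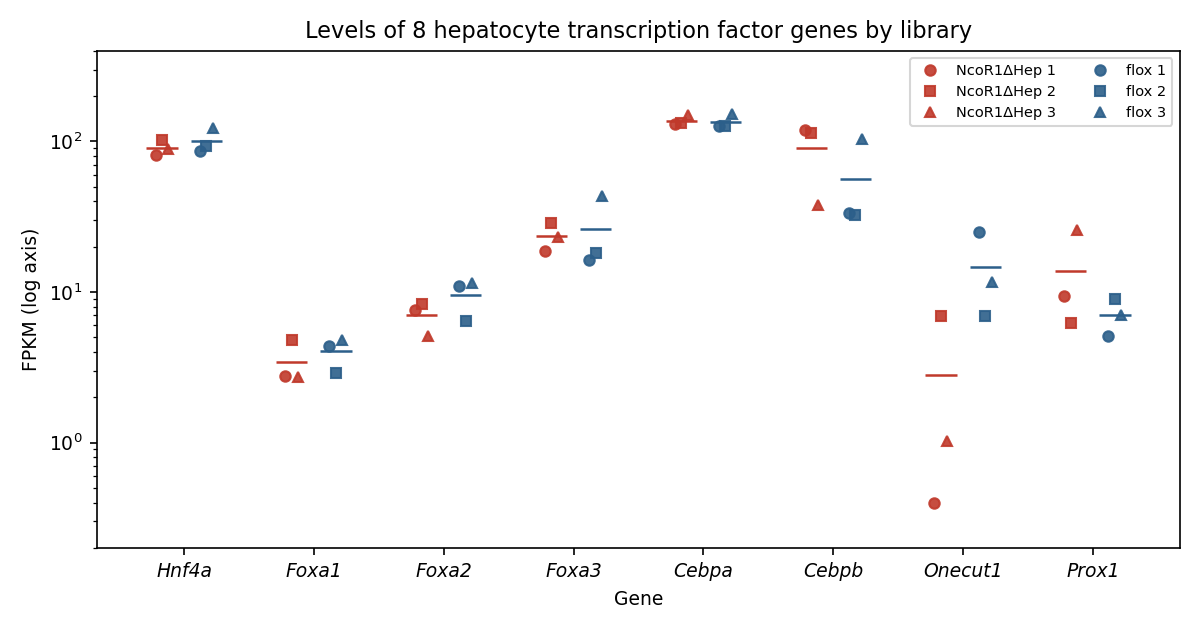
FPKM of the 8 genes (vertical log axis) by gene, with NcoR1ΔHep libraries in red left of flox libraries in blue, one marker shape per library number and a bar at each group's mean. Onecut1 runs from 0.395 FPKM in NcoR1ΔHep 1 to 25.1 FPKM in flox 1, while Cebpa stays between 126 and 152 FPKM.

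The genes differed widely in how far their level varied between libraries. The ratio of the highest to the lowest library, in CPM with TMM scaling, was 1.45 for Cebpa, 1.64 for Hnf4a, 1.88 for Foxa1, 2.06 for Foxa2, 3.0 for Foxa3, 3.73 for Cebpb, 6.16 for Prox1 and 61.1 for Onecut1. The median of this ratio was 2.53 over the 8 genes and 2.09 over the 13165 tested genes detected in every library. Of those genes, 86.4% had a wider spread than Cebpa and 73.7% a wider spread than Hnf4a. Only 0.365% had a wider spread than Onecut1, 7.38% than Prox1 and 17.1% than Cebpb.

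No library was high or low for all 8 genes. In FPKM, each of NcoR1ΔHep 1, NcoR1ΔHep 2, NcoR1ΔHep 3 and flox 1 was the highest library for 1 gene, and flox 3 was the highest for Hnf4a, Foxa2, Foxa3 and Cebpa. NcoR1ΔHep 1 was the lowest for Hnf4a and Onecut1, NcoR1ΔHep 3 for Foxa1 and Foxa2, flox 1 for Foxa3 and Prox1, and flox 2 for Cebpa and Cebpb. With TMM scaling the highest library was instead NcoR1ΔHep 3 for Cebpa, NcoR1ΔHep 2 for Cebpb and flox 3 for Foxa1, and the lowest was NcoR1ΔHep 1 for Foxa1 and flox 1 for Cebpa and Cebpb.

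**Figure D2:**
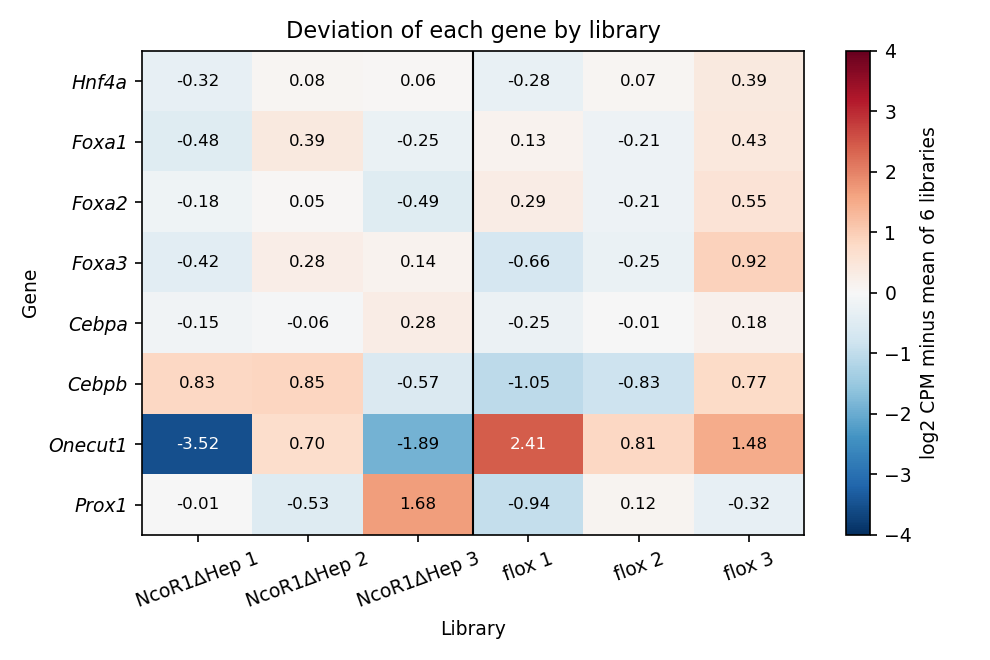
Each cell gives log2 CPM (TMM scaling) of a gene in a library minus that gene's mean over the 6 libraries, with NcoR1ΔHep libraries left of the line and flox libraries right of it. Onecut1 has the widest range, -3.52 in NcoR1ΔHep 1 to 2.41 in flox 1, and Prox1 stands out in NcoR1ΔHep 3 at 1.68.

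The comparison of the genotypes asks which of these genes depend on NcoR1 in hepatocytes at the 0 h time point. By edgeR's quasi-likelihood test none of the 8 genes passed an adjusted p of 0.05 over all 13205 genes. The background for that count was 0 genes (0%), and with DESeq2 it was 5 genes (0.0246% of 20289), none of them a member. At an unadjusted p under 0.05, 1 member was lower and none was higher, where 3.35% of all tested genes passed, 1.92% lower and 1.43% higher. Of the 8 genes, 3 had higher means and 5 lower means in NcoR1ΔHep on the fitted scale, with a median log2 fold change of -0.14. Over all tested genes 53.5% were higher, with a median of 0.03. Without NcoR1ΔHep 1 the median of the 8 was 0.04, no member had an unadjusted p under 0.05, and 2.43% of all genes did.

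**Figure D3:**
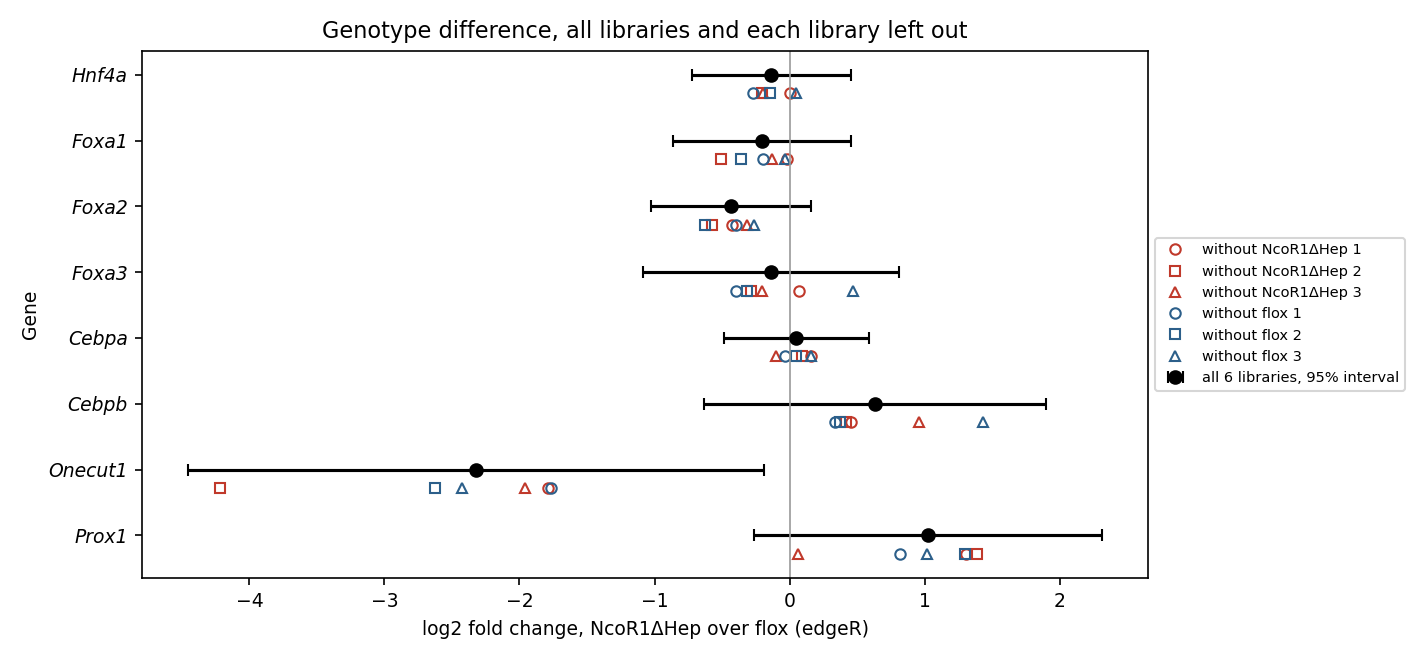
The log2 fold change of each gene, NcoR1ΔHep over flox, with its 95% interval from edgeR (black), and below it the value when each library is left out (open symbols, red for NcoR1ΔHep and blue for flox libraries). Only the interval of Onecut1, -4.45 to -0.19, lies on one side of 0, and Prox1 is near 0 without NcoR1ΔHep 3.

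Hnf4a, the nuclear receptor of the set, had similar levels in both groups. It was at 81.2, 101 and 89.0 FPKM in NcoR1ΔHep 1, 2 and 3, against 86.5, 92.8 and 122 FPKM in flox 1, 2 and 3. The groups overlapped, and only flox 3 lay above all NcoR1ΔHep libraries. The means were 90.6 ± 10.2 FPKM in NcoR1ΔHep and 101 ± 19.2 FPKM in flox (SD, n = 3 each), with an edgeR log2 fold change of -0.13 (SE 0.26, 95% interval -0.72 to 0.46, adjusted p = 0.955). The value was 0.00 without NcoR1ΔHep 1 and 0.05 without flox 3. Hnf4a lies on chromosome 2 from 163506808 to 163572910 on the plus strand of GRCm38 (GENCODE M21). The antisense transcript Hnf4aos lies in the same region with no exon in common, and had 28 to 125 counts where Hnf4a had 14316 to 21299.

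Genes known as HNF4A targets showed no shared direction. Of 18 targets tested, 11 had higher and 7 lower means in NcoR1ΔHep, with a median log2 fold change of 0.01 (0.01 without NcoR1ΔHep 1). None had an unadjusted p under 0.05. The members with the smallest p were apolipoprotein genes of triglyceride-rich lipoproteins. Apoa4 was at 175, 157 and 141 FPKM in NcoR1ΔHep, against 673, 196 and 168 FPKM in flox. Flox 1 alone held the high value, and the groups overlapped in FPKM but not with TMM scaling. Apoc3 was at 5409, 1817 and 1660 FPKM in NcoR1ΔHep, against 1557, 1608 and 1937 FPKM in flox, and here NcoR1ΔHep 1 alone was high. The fitted log2 fold change of Apoc3 was 0.77 (SE 0.43) and was 0.12 without that library.

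The Foxa genes encode forkhead pioneer factors, and Foxa3 was the most abundant of them in every library. It made up 64.4%, 68.5% and 74.7% of the summed Foxa FPKM in NcoR1ΔHep 1, 2 and 3, against 51.7%, 66.1% and 72.8% in flox 1, 2 and 3. These shares overlapped between the groups. Foxa1 and Foxa2 shared 8 sequences of 31 bases between their annotated transcripts, and no other pair of the 8 genes shared any. Such sequences were counted from every base, so these 8 may overlap within a longer common run.

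Foxa1 was at 2.77, 4.80 and 2.73 FPKM in NcoR1ΔHep, against 4.39, 2.92 and 4.79 FPKM in flox. NcoR1ΔHep 2 was as high as the highest flox library, and flox 2 nearly as low as the low NcoR1ΔHep libraries. Its log2 fold change was -0.20 (SE 0.29, 95% interval -0.86 to 0.45, edgeR adjusted p = 0.949), or -0.02 without NcoR1ΔHep 1 and -0.50 without NcoR1ΔHep 2.

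Foxa2, which in mouse liver also serves the response to fasting and bile acid balance, was at 7.54, 8.36 and 5.11 FPKM in NcoR1ΔHep, against 10.9, 6.44 and 11.5 FPKM in flox. Flox 1 and flox 3 lay above all NcoR1ΔHep libraries, while flox 2 lay among them. The means were 7.0 ± 1.69 FPKM in NcoR1ΔHep and 9.61 ± 2.76 FPKM in flox (SD, n = 3 each), with a log2 fold change of -0.44 (SE 0.26, 95% interval -1.03 to 0.16, edgeR adjusted p = 0.931). The value was -0.43 without NcoR1ΔHep 1 and ran from -0.62 to -0.26 over the libraries left out in turn.

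Foxa3, known for supporting the glucose transporter gene Slc2a2 in mouse liver, was at 18.6, 28.7 and 23.1 FPKM in NcoR1ΔHep, against 16.4, 18.3 and 43.5 FPKM in flox. The flox libraries enclosed those of NcoR1ΔHep, with flox 3 at the top and flox 1 at the bottom. The log2 fold change was -0.14 (SE 0.41, 95% interval -1.09 to 0.81, edgeR adjusted p = 0.979). Without flox 3 it was 0.47, and without NcoR1ΔHep 1 it was 0.07, so its sign rested on single libraries.

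Of 11 genes listed as FOXA targets, 7 had higher and 4 lower means in NcoR1ΔHep, with a median log2 fold change of 0.12 (0.12 without NcoR1ΔHep 1). One, Tat, had an unadjusted p under 0.05. Tat, the tyrosine aminotransferase, was at 436, 326 and 413 FPKM in NcoR1ΔHep, against 217, 205 and 291 FPKM in flox. Every NcoR1ΔHep library lay above every flox library, and the log2 fold change was 0.74 (SE 0.27, edgeR adjusted p = 0.931), also 0.74 without NcoR1ΔHep 1. Its lowest libraries, flox 1 and flox 2, were those apart in the clock genes, and the part of clock phase was not tested. G6pc, the glucose-6-phosphatase of gluconeogenesis, was at 174, 272 and 137 FPKM in NcoR1ΔHep, against 238, 201 and 347 FPKM in flox, with overlap.

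Onecut1 was the member with the largest difference between the genotypes and the widest spread within them. It was at 0.395, 6.95 and 1.03 FPKM in NcoR1ΔHep 1, 2 and 3, against 25.1, 6.94 and 11.7 FPKM in flox 1, 2 and 3. NcoR1ΔHep 1 and NcoR1ΔHep 3 lay far below every flox library, whereas NcoR1ΔHep 2 was level with flox 2. In raw counts these were 27, 473 and 70 in NcoR1ΔHep, against 1736, 487 and 786 in flox. The 27 counts have an exact 95% Poisson interval of 17.8 to 39.3 for counting error only, and its upper bound lies below the count of each of the other 5 libraries.

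The mean of Onecut1 was 2.79 ± 3.62 FPKM in NcoR1ΔHep and 14.6 ± 9.40 FPKM in flox (SD, n = 3 each). The log2 fold change was -2.32 (SE 0.93, 95% interval -4.45 to -0.19), with an unadjusted p of 0.0365 and an edgeR adjusted p of 0.931. With TMM scaling the groups did not overlap, at 12.5 CPM or less in NcoR1ΔHep and 13.6 CPM or more in flox, where 8.82% of all tested genes did not overlap, 5.53% lower. In FPKM they overlapped by the margin between NcoR1ΔHep 2 and flox 2, where 7.56% of all tested genes did not overlap. The biological coefficient of variation that edgeR fitted was 73.5% for Onecut1, against 29.9% on the trend at its level.

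Single libraries moved the size of this difference. Without NcoR1ΔHep 1 the log2 fold change of Onecut1 was -1.79 (SE 0.79, unadjusted p = 0.0581, edgeR adjusted p = 0.998). Without NcoR1ΔHep 2 it was -4.22, and without flox 1 it was -1.77. The sign was the same in all 17 alternatives, with an unadjusted p under 0.05 in 13 of them and an adjusted p under 0.05 in none (smallest adjusted p = 0.626). Most of these refit the same 6 libraries and add no independent support. The edgeR unadjusted p was 0.086 without NcoR1ΔHep 3, 0.117 without flox 1 and 0.0517 without flox 3. It was 0.00057 without NcoR1ΔHep 2 and 0.0247 without flox 2. The gene lies on chromosome 9 from 74861921 to 74891781, plus strand, in GRCm38. A long noncoding RNA, Gm20649, overlaps 2171 exon bases on the same strand, and reads from it could be counted as Onecut1.

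Cell type markers and sex-linked expression were read beside Onecut1. Markers of liver sinusoidal endothelial cells summed to 532, 317 and 292 CPM in NcoR1ΔHep 1, 2 and 3, against 864, 394 and 507 CPM in flox 1, 2 and 3, and 20 of 21 had lower means in NcoR1ΔHep (median log2 fold change -0.62; -1.02 without NcoR1ΔHep 1). Kdr and Ptprb, receptor genes of endothelium, had log2 fold changes of -1.01 (SE 0.37) and -0.91 (SE 0.32), or -1.16 and -1.02 without NcoR1ΔHep 1. NcoR1ΔHep 1, with the least Onecut1, was the second highest library for these markers, and flox 1, with the most Onecut1, was the highest. Genes that female mouse liver expresses more, Cyp2a4 and Sult2a1, reached 1166 and 634 FPKM in NcoR1ΔHep 1, and no other library exceeded 22.1 and 0.866 FPKM for them, NcoR1ΔHep 3, also low in Onecut1, included. Stellate cell markers had 12 of 12 higher means in NcoR1ΔHep (median log2 fold change 0.35, or 0.36 without NcoR1ΔHep 1). They summed to 501 to 613 CPM in NcoR1ΔHep and 399 to 464 CPM in flox. Their mean log2(CPM + 1) relative to the 6 libraries overlapped, at -0.01, 0.44 and -0.06 in NcoR1ΔHep, against 0.08, -0.25 and -0.20 in flox. Kupffer cell (macrophage) markers had 10 of 12 lower means (median -0.36, or -0.22 without NcoR1ΔHep 1). Their sums overlapped, at 435, 698 and 319 CPM in NcoR1ΔHep 1, 2 and 3, against 626, 489 and 694 CPM in flox 1, 2 and 3. The part of endothelial content or of sex-linked expression in the Onecut1 values was not tested.

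The paralog Onecut2 and the bile duct genes did not follow Onecut1. Onecut2, which was picked with its values in view, was at 4.82, 2.47 and 5.94 FPKM in NcoR1ΔHep, against 4.85, 4.21 and 3.36 FPKM in flox, with overlap. Bile duct (cholangiocyte) markers, from cells that also express Onecut1, had 9 of 12 genes tested, of which 6 had higher means in NcoR1ΔHep (median log2 fold change 0.29; 0.55 without NcoR1ΔHep 1). They summed to 74.8, 191 and 63.2 CPM in NcoR1ΔHep, against 61.0, 64.2 and 76.9 CPM in flox, so NcoR1ΔHep 2 alone was high. Spp1, the osteopontin gene, was at 99.0 FPKM there, and the remaining 5 libraries had 21.0 to 33.7 FPKM. Epcam, an adhesion molecule of bile ducts, had a log2 fold change of 1.23 (SE 0.51; 1.02 without NcoR1ΔHep 1), with levels of at most 1.13 FPKM.

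Prox1, the homeodomain repressor, had its highest level in 1 NcoR1ΔHep library. It was at 9.46, 6.23 and 25.6 FPKM in NcoR1ΔHep 1, 2 and 3, against 5.13, 8.99 and 7.0 FPKM in flox 1, 2 and 3. NcoR1ΔHep 3 stood far above the other 5 libraries, among which the groups overlapped. The means were 13.8 ± 10.4 FPKM in NcoR1ΔHep and 7.04 ± 1.93 FPKM in flox (SD, n = 3 each). The log2 fold change was 1.02 (SE 0.56, 95% interval -0.27 to 2.31, edgeR adjusted p = 0.931). It was 1.30 without NcoR1ΔHep 1 and 0.06 without NcoR1ΔHep 3.

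Lymphatic endothelium, the other liver source of Prox1, was measured by 7 marker genes, of which 6 were tested and 4 had lower means in NcoR1ΔHep (median log2 fold change -0.64; -0.46 without NcoR1ΔHep 1). They summed to 73.7, 68.8 and 48.6 CPM in NcoR1ΔHep 1, 2 and 3, against 123, 57.3 and 70.7 CPM in flox, and NcoR1ΔHep 3, the library with the most Prox1, had the lowest sum. That sum is mostly Reln, Flt4, Itga9 and Lyve1, and Flt4 and Lyve1 are also in the list of sinusoidal markers. Itga9 and Lyve1, with the smallest p of these markers, were at 0.771 and 1.79 FPKM in NcoR1ΔHep 3, the lowest values of the 6 libraries. Ccl21a, a lymphatic chemokine gene named with its values in view, as is Mmrn1, was instead highest there, at 0.676, 0.988 and 1.85 FPKM in NcoR1ΔHep, against 1.55, 1.38 and 0.592 FPKM in flox. Mmrn1, another marker, was at 0.0576, 0.0116 and 0.168 FPKM in NcoR1ΔHep, against 0.102, 0.168 and 0.0758 FPKM in flox, so NcoR1ΔHep 3 and flox 2 were highest. Both rest on 60 counts or fewer in each library, and the part of lymphatic cells in the Prox1 values was not tested. The antisense transcript Prox1os overlaps 133 exon bases of Prox1 and had 96 to 166 counts, where Prox1 had 1675 to 8216.

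Nr2f2, which encodes the nuclear receptor COUP-TFII, was also highest in NcoR1ΔHep 3. It was at 7.97, 7.30 and 15.3 FPKM in NcoR1ΔHep 1, 2 and 3, against 3.60, 7.13 and 4.80 FPKM in flox. The groups did not overlap in FPKM, by the margin between NcoR1ΔHep 2 and flox 2, and overlapped with TMM scaling. The log2 fold change was 1.01 (SE 0.43, unadjusted p = 0.0465, edgeR adjusted p = 0.931), or 1.23 without NcoR1ΔHep 1. Nr2f2 and Nfia were the genes with the smallest p among 27 further liver transcription factors, of which 18 had higher and 9 lower means (median log2 fold change 0.07; 0.18 without NcoR1ΔHep 1). Nfia, of the nuclear factor I family, was at 5.34, 3.80 and 4.86 FPKM in NcoR1ΔHep, against 2.46, 3.33 and 3.17 FPKM in flox. Its groups did not overlap, and its log2 fold change was 0.65 (SE 0.25, edgeR adjusted p = 0.931), or 0.63 without NcoR1ΔHep 1.

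Among 8 genes listed as targets of ONECUT1 or PROX1, 5 had higher and 3 lower means (median log2 fold change 0.09; 0.05 without NcoR1ΔHep 1). Cyp7a1, which sets the pace of bile acid synthesis, had the smallest p. It was at 30.2, 31.3 and 20.6 FPKM in NcoR1ΔHep, against 4.09, 6.97 and 21.5 FPKM in flox. In FPKM only flox 3 reached the NcoR1ΔHep range, and with TMM scaling the groups did not overlap. The log2 fold change was 1.32 (SE 0.57, edgeR adjusted p = 0.931), also 1.32 without NcoR1ΔHep 1. The low libraries, flox 1 and flox 2, were again those apart in the clock genes, whose part in these values was not tested. Foxa2 and Hnf4a, whose upstream windows hold the ONECUT core printed above, are in the same list, and their values did not separate the groups. In NcoR1ΔHep 1, the library with the least Onecut1, against flox 1, the library with the most, Foxa2 was at 7.54 against 10.9 FPKM and Hnf4a at 81.2 against 86.5 FPKM. NcoR1ΔHep 3, also low in Onecut1, had the lowest Foxa2, at 5.11 FPKM, and Hnf4a at 89.0 FPKM. Over the 6 libraries, Pearson's r with Onecut1 on the log2(CPM + 1) scale was 0.74 for Foxa2 and 0.28 for Hnf4a, a description with no test. It was 0.75 for Foxa1, whose window held no core, and 124 genes outside the members had an r above 0.95. These values therefore do not set apart the genes with the core.

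**Figure D4:**
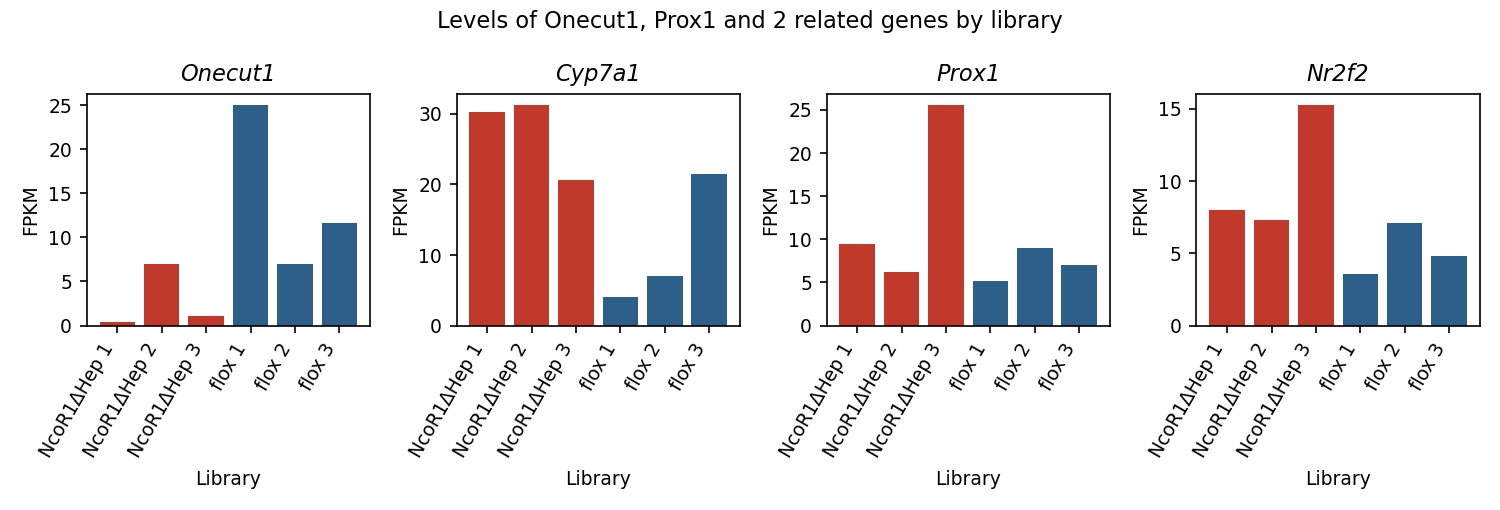
FPKM of Onecut1, Cyp7a1, Prox1 and Nr2f2 in each library, NcoR1ΔHep in red left of flox in blue, each panel with its own axis from 0. Onecut1 is lowest in NcoR1ΔHep 1 and 3, and Prox1 (25.6 FPKM) and Nr2f2 (15.3 FPKM) share their highest library, NcoR1ΔHep 3.

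Cebpa was the steadiest of the 8 genes. It was at 131, 132 and 149 FPKM in NcoR1ΔHep 1, 2 and 3, against 127, 126 and 152 FPKM in flox 1, 2 and 3. The 2 groups covered nearly the same range. Its means were 138 ± 10.1 FPKM in NcoR1ΔHep and 135 ± 14.6 FPKM in flox (SD, n = 3 each), and the log2 fold change was 0.05 (SE 0.23, 95% interval -0.48 to 0.59, edgeR adjusted p = 0.986). Without NcoR1ΔHep 1 it was 0.16.

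Cebpb divided the libraries in a way that crossed the genotypes. It was at 119, 113 and 37.7 FPKM in NcoR1ΔHep 1, 2 and 3, against 33.4, 32.6 and 104 FPKM in flox 1, 2 and 3. NcoR1ΔHep 1, NcoR1ΔHep 2 and flox 3 were high and the other 3 libraries low, with no value between 37.7 and 104 FPKM. The means were 89.8 ± 45.2 FPKM in NcoR1ΔHep and 56.6 ± 40.9 FPKM in flox (SD, n = 3 each), and the log2 fold change was 0.63 (SE 0.55, 95% interval -0.63 to 1.90, edgeR adjusted p = 0.931). It ran from 0.34 without flox 1 to 1.44 without flox 3 and was 0.46 without NcoR1ΔHep 1. Cebpb is a gene of 1 exon, and 312 of its bases overlap an exon of Tmem189 on the other strand, which had 139 to 194 counts where Cebpb had 1906 to 6741.

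The ratio of Cebpb to Cebpa within a library does not depend on library scaling. It was 0.903, 0.857 and 0.252 in NcoR1ΔHep 1, 2 and 3, against 0.262, 0.259 and 0.684 in flox 1, 2 and 3. The mean log2 ratio was -0.79 ± 1.04 in NcoR1ΔHep and -1.48 ± 0.80 in flox (SD, n = 3 each). The difference of 0.69 gave p = 0.4 in an exact two-sided permutation test, where 3 libraries against 3 cannot go below 0.1. Without NcoR1ΔHep 1 the difference was 0.37. As a share of the summed FPKM of the 8 genes, Cebpb took 32.1%, 28.2% and 11.3% in NcoR1ΔHep, against 10.8%, 11.1% and 22.7% in flox.

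The acute-phase genes, which C/EBPβ is known to activate in inflammation, were high in 2 of the 3 libraries with high Cebpb. Of 22 such genes, 5 had higher and 17 lower means in NcoR1ΔHep (median log2 fold change -0.21; 0.07 without NcoR1ΔHep 1). Their mean deviation on the log2(CPM + 1) scale was -0.62, 0.88 and -0.43 in NcoR1ΔHep 1, 2 and 3, against -0.35, -0.56 and 1.08 in flox 1, 2 and 3. NcoR1ΔHep 2 and flox 3 had high levels of both Cebpb and the acute-phase genes, while NcoR1ΔHep 1 had the highest Cebpb FPKM and the lowest acute-phase level. Saa1, a serum amyloid gene picked with its values in view, was at 20.7, 2092 and 64.4 FPKM in NcoR1ΔHep, against 129, 61.1 and 2427 FPKM in flox. By the smallest p the leading genes were Orm3, at 8.67 FPKM in NcoR1ΔHep 1 and no more than 0.912 FPKM in any other library, and complement C3, with a log2 fold change of -0.41 (SE 0.27; -0.29 without NcoR1ΔHep 1).

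Among 21 genes listed as C/EBP targets, 10 had higher and 11 lower means (median log2 fold change -0.01, or 0.13 without NcoR1ΔHep 1). Hp, Orm1, Orm2, Saa1, Saa2, Saa3, Lcn2, Hpx, Apcs, Itih4 and Socs3 are also in the acute-phase list. Alb, Cps1, G6pc, Pck1 and Tat are also in the FOXA list, so these tallies are not separate readings. Besides Tat, the smallest p was that of Hamp, the gene of the iron hormone hepcidin. Hamp was at 4160, 631 and 1837 FPKM in NcoR1ΔHep, against 1373, 609 and 975 FPKM in flox, and its log2 fold change of 1.19 (SE 0.58) was 0.49 without NcoR1ΔHep 1. Flox 1 and flox 2, the libraries apart in Dbp and Arntl, were both low for Cebpb, and NcoR1ΔHep 3, which was not apart in them, was low for Cebpb too. The part of clock phase in the Cebpb values was not tested.

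**Figure D5:**
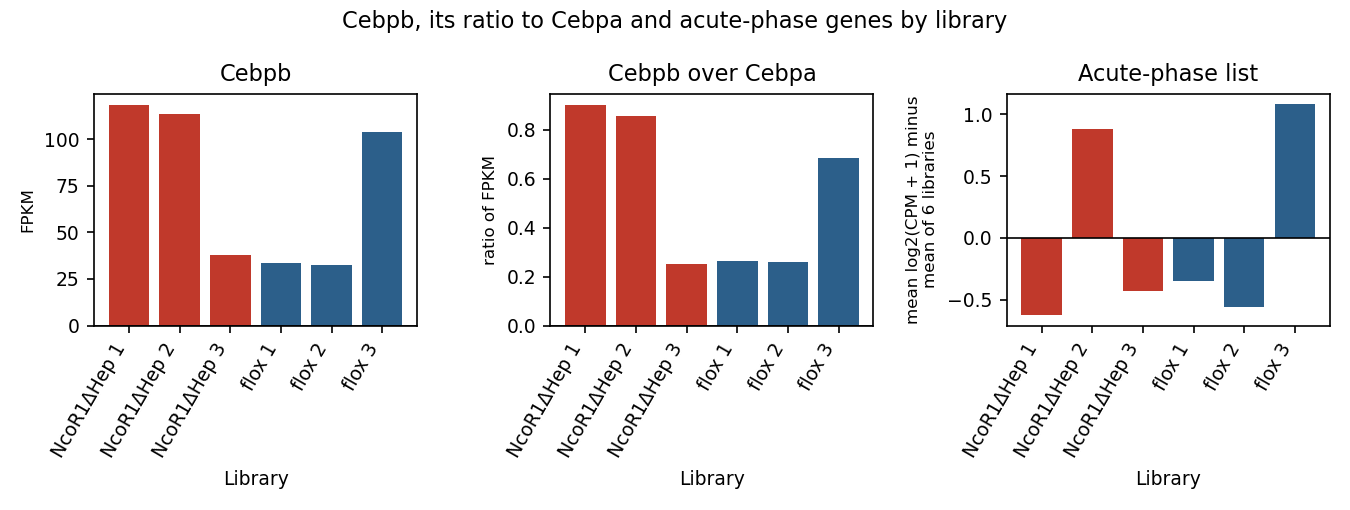
Cebpb in FPKM (left), the ratio of Cebpb to Cebpa FPKM (middle) and the mean level of 22 acute-phase genes relative to the mean of the 6 libraries (right, log2 scale), by library, NcoR1ΔHep in red and flox in blue. NcoR1ΔHep 1 is highest for Cebpb and the ratio (0.903) and lowest for the acute-phase genes (-0.62).

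Genes of hepatocyte products and of immature liver were read beside these factors. Of 20 hepatocyte marker genes, 13 had higher and 7 lower means in NcoR1ΔHep, with a median log2 fold change of 0.14 (0.12 without NcoR1ΔHep 1). After Tat, Arg1, the urea cycle arginase, had the smallest p, at 1537, 1121 and 1300 FPKM in NcoR1ΔHep, against 726, 861 and 1199 FPKM in flox, with overlap. Of 11 fetal liver genes in the table, 8 were tested, 4 with higher and 4 with lower means (median log2 fold change -0.05; 0.29 without NcoR1ΔHep 1), and Dlk1 and Igf2bp1 had no counts. Their summed level was 5.95 to 23.2 CPM in NcoR1ΔHep and 13.2 to 48.1 CPM in flox. The fetal gene H19 was at 0.609 FPKM or less in NcoR1ΔHep, against 15.1, 0.977 and 0.0355 FPKM in flox, and Afp, the fetal counterpart of albumin, was at 0.448 to 1.03 FPKM throughout.

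For each of the 8 genes, the tested genes with the most similar pattern over the 6 libraries were found by Pearson's r of log2(CPM + 1) with TMM scaling among 11423 genes with a mean of at least 1 CPM. The 6 libraries share their genotype groups and scaling, and 15 to 168 genes had an r above 0.95 with each member, so these are descriptions with no test. The nearest gene was Slc26a1 for Hnf4a, Cdc16 for Foxa1, Trmt61a for Foxa2, Akr1c12 for Foxa3, Polr2d for Cebpa, Slc25a39 for Cebpb, Ykt6 for Onecut1 and Ier3ip1 for Prox1. The second nearest were Cyp7b1, Basp1, Hsph1, Ak4, Egln1, Wdr55, Cttn and Maip1, in the same order. Ykt6, a vesicle fusion protein, was at 12.4, 17.5 and 11.4 FPKM in NcoR1ΔHep, against 22.9, 16.2 and 17.6 FPKM in flox, a far narrower range than that of Onecut1. Cyp7b1, an enzyme of oxysterol and bile acid metabolism, was at 12.1, 65.7 and 51.8 FPKM in NcoR1ΔHep, against 15.7, 40.4 and 126 FPKM in flox.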

How the data were processed

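The authors deposited whole-number read counts per gene symbol and, for the same genes and libraries, FPKM values, which per the values are the count divided by 1 length per gene and by the library total (lengths whole within 0.01 for all 8 genes). The submitters' processing notes name GRCm38, mm10 and hg38. The aligner and the counting tool, with its handling of strand, were not given in the sources used here. The SMARTer kit is named per the labels. Genes were filtered with filterByExpr (minimum count 10, minimum total 15), leaving 13205 genes with 99.95% of counts. NcoR1ΔHep was compared with flox by edgeR 4.0.16 (R 4.3.3) with TMM factors and its quasi-likelihood test, two-sided, Benjamini-Hochberg adjusted over all genes at 0.05. Standard errors come from the F statistic. Alternatives used DESeq2 1.42.0, limma 3.58.1 (also on log2(FPKM + 1) and log2(FPKM + 0.1)), other factors and filters, a replicate block and each library left out. Fits were tested on simulated data. All 8 members and the gene lists were chosen with earlier results of these data known. The genes named are the members, the 2 genes most like each member, the checks of the labels and genes that overlap a member. From most further lists the 2 genes with the smallest p are named, and some others with their values in view. Stellate and Kupffer cell markers are given only as counts, medians and levels of the whole list. Lists of neutrophil, lymphocyte and pancreas markers were also computed, and their results are not given here.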

Additional observations from a re-analysis of the deposited data

How the results depend on the processing

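None of the 8 genes passed an adjusted p of 0.05 under any of the 17 alternatives. The count of called genes was 0 with edgeR (443 at an unadjusted p under 0.05), 5 with DESeq2 and 8 with limma on log2(FPKM + 1) without a filter, where genes near 0 enter. Leaving out single libraries turned the sign of Hnf4a (-0.27 to 0.046), Foxa3 (-0.40 to 0.47) and Cebpa (-0.10 to 0.16), and the cause was not tested. Ranges were -0.50 to -0.02 for Foxa1, -0.62 to -0.26 for Foxa2, 0.34 to 1.44 for Cebpb, -4.22 to -1.77 for Onecut1 and 0.06 to 1.39 for Prox1. The number of members whose groups did not overlap was 1 with TMM factors, where 8.82% of all tested genes did not overlap. It was 0 in FPKM, where 7.56% of all tested genes did not overlap. In CPM by total counts it was also 0, and the share over all genes was not computed there. Deviations of same-numbered libraries had correlations of 0.02, -0.38 and -0.52. Differently numbered libraries were not correlated for comparison, so these values cannot show whether the replicate numbers pair the libraries. With the replicate as a block edgeR called 0 genes, with 175 at an unadjusted p under 0.05, against 443 without it. For the ratio of Cebpb to Cebpa the block gave a difference of 0.69, and the libraries left out in turn 0.37 to 1.29.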

Other observations

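Hhex, a homeobox gene of the early liver bud, chosen after its values were seen, ranged widely within both groups. It was at 20.8, 107 and 56.1 FPKM in NcoR1ΔHep 1, 2 and 3, against 51.0, 23.9 and 75.9 FPKM in flox 1, 2 and 3. Hhex was high in NcoR1ΔHep 2 and flox 3, the libraries with high acute-phase genes, and low in NcoR1ΔHep 1. Its log2 fold change was 0.34 (SE 0.60, edgeR adjusted p = 0.955). Apoa2, an apolipoprotein of high-density lipoproteins also chosen in this way, was at 16530 FPKM in NcoR1ΔHep 1, while the remaining 5 libraries had 4800 to 6080 FPKM.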
